A study of Homo sapiens with 4 samples.

Results

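The hypoxia target genes that act outside glycolysis and were followed through the libraries of a colorectal cancer study were CA9, VEGFA, ADM, NDRG1, BNIP3, BNIP3L, EGLN3, ANKRD37, KDM3A and P4HA1. These 10 genes were found by symbol among the 58735 genes of the deposited table, and each symbol matched 1 row. RNA-seq was run on 4 libraries, 1 per condition, from adherent cells and from spheroids of HCT116 and of LOVO, which are colon cancer lines of human origin, labelled wild type throughout. Adherent cells are labelled as untreated. By the tumorsphere method of the study, spheroids were grown from single cells in ultralow attachment dishes for 2 weeks, in serum-free DMEM/F12 with B27, N2, bFGF and EGF, and the study formed them in oxaliplatin, a platinum drug. Their label gives a treatment of 1 mg/ml with no drug name, against micrograms per ml in the study's results, so no dose is used here. Growth form, medium and drug changed together, and their parts in any difference cannot be told apart. The oxygen level of the cultures is not given in the sources used here.

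Cells read oxygen through the prolyl hydroxylases EGLN1, EGLN2 and EGLN3, which mark the alpha subunits HIF1A and EPAS1 for capture by VHL and destruction when oxygen is plentiful. When oxygen falls, the alpha subunits persist, pair with ARNT or ARNT2, and bind short DNA elements near target genes. Glycolytic enzymes are the best known targets. The genes followed here serve other ends of the same response: acid handling (CA9), blood vessel growth and tone (VEGFA, ADM), removal of mitochondria (BNIP3, BNIP3L), feedback on the sensor (EGLN3), histone demethylation (KDM3A), collagen hydroxylation (P4HA1), and the stress-responsive genes NDRG1 and ANKRD37. Poorly perfused regions of solid tumours often express these genes. Several of them also answer to other signals.

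The core of a hypoxia response element reads ACGTG or GCGTG, and promoter windows that hold it are shown because the genes are grouped by that regulation. RefSeq promoters (GRCh38.p14, from 250 bases before to 50 bases after a start site) were matched for 7 of the 10 genes: CA9, ADM, BNIP3, EGLN3, ANKRD37, KDM3A and P4HA1. Both strands were searched. ACGTG was present in 4 of the 7 genes and either core in 6 of the 7. Over all 35116 promoters of the table, 21.4% held ACGTG, 36.5% held GCGTG and 48.4% held either. Each window below has 30 bases, written 5′ to 3′ on the strand of the gene, with cores in capitals, and CACGTG is a palindrome that holds ACGTG on both strands.
CA9, chr9:35673898-35673927, plus strand, core 18 bases before the start: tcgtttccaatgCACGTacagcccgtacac
P4HA1, chr10:73096935-73096964, minus strand, core 86 bases before: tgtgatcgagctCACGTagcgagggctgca
ANKRD37, chr4:185396668-185396697, plus strand, core 161 bases before: gcgccgggctcCACGTGccagtgtttgtgt
ANKRD37, chr4:185396686-185396715, plus strand, core 143 bases before: cagtgtttgtgtACGTGcggccgtggcggg
BNIP3, chr10:131982039-131982068, minus strand, central core 133 bases before: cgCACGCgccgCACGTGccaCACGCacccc
ADM, chr11:10304960-10304989, plus strand, core 101 bases before: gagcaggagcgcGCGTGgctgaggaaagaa
KDM3A, chr2:86441333-86441362, plus strand, core 26 or 116 bases before, by start site: ccgggaggctgtGCGTGtcttgtgagagct
No ACGTG or GCGTG lay in the EGLN3 window. A match is a description of the letters and not a shown binding site.

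The authors deposited FPKM, a read count set against gene length and library size. Every value above 0, times its gene length, divided into a whole number of equal steps per library (100%, tolerance 0.01 reads), and the step count is the number of reads, in total between 15483569 and 20429147 per library. A log2 change is the value of log2(FPKM + 1) in spheroids less that in adherent cells of the same line, and it shrinks the change of weakly expressed genes. A fold is the ratio of the FPKM values with no pseudocount, and its exact 95% interval covers counting error only. With 1 library per condition no fold has a replicate check, and no p-value is given within a line. All 10 genes had a mean FPKM of at least 1, as did 14429 genes in all, and these form the background.

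The labelled cell type was checked on 10 colon epithelium markers. In HCT116 the summed level of the markers was 946 FPKM in adherent cells and 745 FPKM in spheroids, with CDH1 at 31.1 FPKM in both. In LOVO it was 312 FPKM in adherent cells and 182 FPKM in spheroids, nearly all from the keratins KRT8 and KRT18. LOVO held 0 reads of CDX2 and VIL1 in both libraries, 13 and 1 reads of the E-cadherin gene CDH1, and 42 and 76 reads of EPCAM, adherent cells first. In the same order, HCT116 held 323 and 216 reads of CDX2 and 4397 and 3356 reads of EPCAM. HCT116 too had few reads of VIL1 (6 and 11), CDX1 (1 and 0), LGALS4 (3 and 4) and CDH17 (15 and 25). The LOVO libraries thus went against their label at the colon markers CDX2, CDH1 and EPCAM. Changes are therefore given for HCT116 and LOVO separately, and counts over both lines and limma, which join them, carry this limit. The 5 fibroblast markers summed to 5.60 and 16.0 FPKM in HCT116 and to 22.6 and 22.4 FPKM in LOVO, where decorin (DCN) had 10.4 and 9.97 FPKM and COL1A2 0 and 1 reads. Endothelial markers summed to 0.313 and 0.883 FPKM in HCT116 and to 1.20 and 7.98 FPKM in LOVO, and PECAM1 went from 0.0359 to 6.35 FPKM in LOVO. The 5 leukocyte markers summed to at most 0.918 FPKM in any library. The part of these markers' sources in the results was not tested.

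In HCT116 spheroids 7 of the 10 hypoxia targets were higher than in adherent cells, against 45.8% of all 14429 genes, and in LOVO spheroids 9 of 10 were higher, against 45.5%. In both lines 7 of them were higher, as were 27.2% of all genes. Of these 7, CA9 in HCT116 (16 and 15 reads) and ANKRD37 in LOVO (31 and 54 reads) had fold intervals that included 1. The genes with large changes were different ones in each line. ANKRD37 and NDRG1 had a log2 change above 1 in HCT116 (2 of 10, background 2.19%), and CA9, EGLN3 and ADM in LOVO (3 of 10, background 8.57%). Above 1 in at least 1 line were thus 5 of 10 (background 10.1%), and in both lines 0 of 10 (background 0.645%). Above a log2 change of 2 stood ANKRD37 in HCT116 (1 of 10, background 0.201%) and CA9 and EGLN3 in LOVO (2 of 10, background 1.81%). None of the 10 lay below -1 in either line (0 in each, background 3.33% in HCT116 and 7.85% in LOVO). The median log2 change was 0.32 in HCT116 and 0.53 in LOVO, beside -0.03 and -0.06 over all genes. As these are bulk RNA values, more cells that express a gene and more RNA per cell cannot be told apart.

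**Figure D1:**
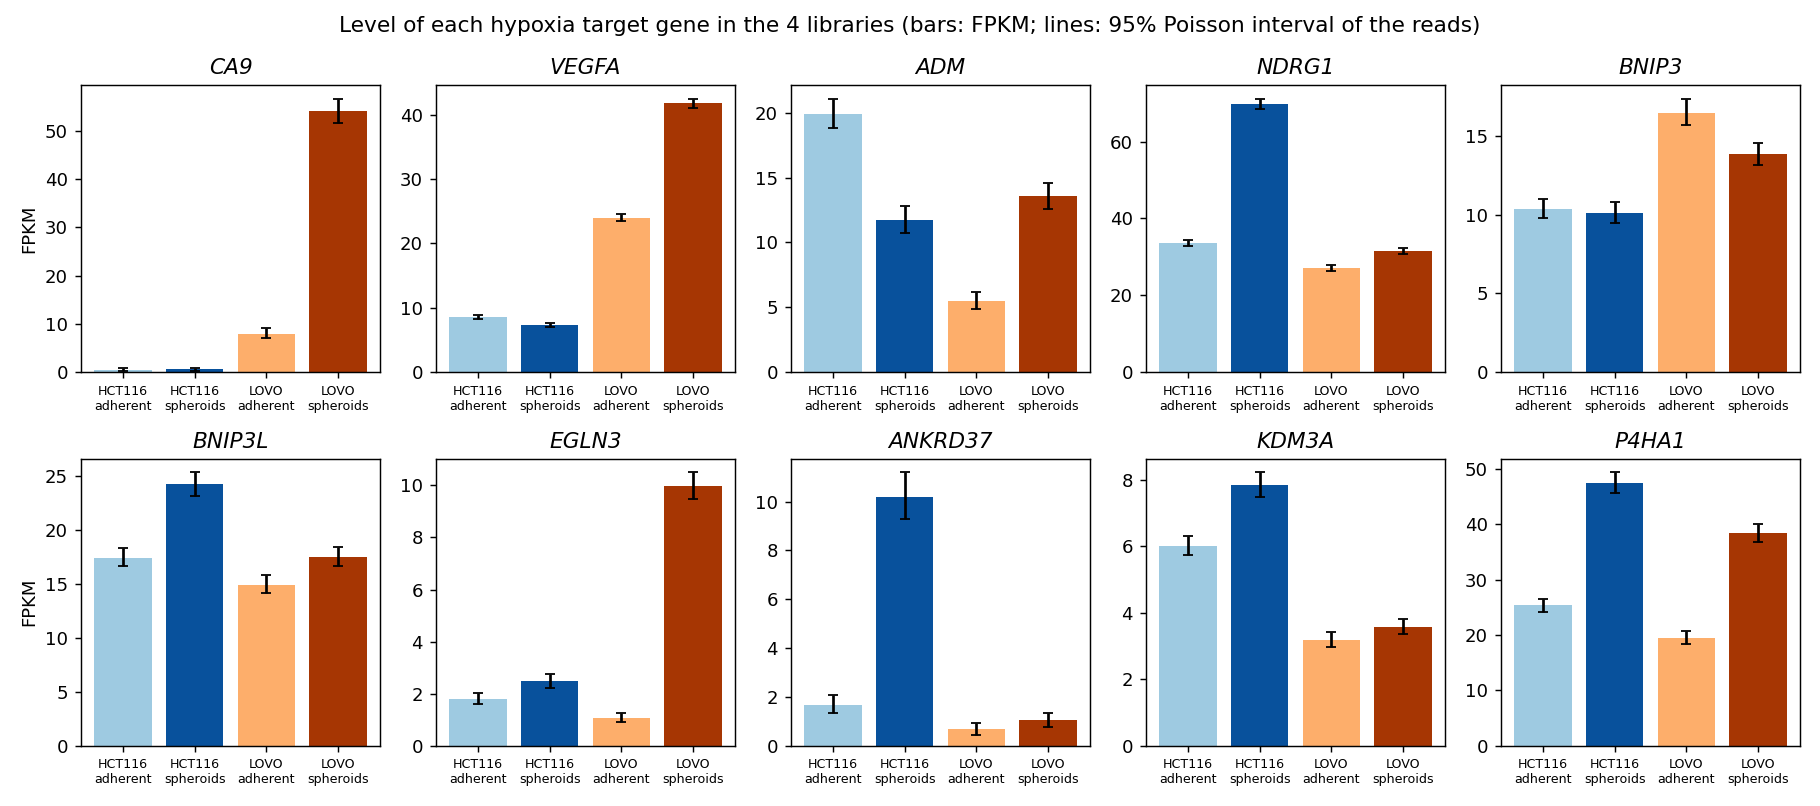
FPKM of each of the 10 genes in the 4 libraries, 1 panel per gene with its own axis from 0; lines are 95% Poisson intervals of the reads and cover counting error only. CA9, VEGFA and EGLN3 were highest in LOVO spheroids, NDRG1, BNIP3L, ANKRD37, KDM3A and P4HA1 in HCT116 spheroids, ADM in adherent HCT116 cells and BNIP3 in adherent LOVO cells.

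CA9 encodes carbonic anhydrase IX, a membrane enzyme that helps tumour cells keep their internal pH by hydrating carbon dioxide outside the cell. It lies on chromosome 9 from 35673856 to 35681159 of GRCh38. CA9 had 0.470 FPKM in adherent and 0.535 in spheroid HCT116 cells, and 7.98 in adherent and 54.2 in spheroid LOVO cells. LOVO carried far more of it than HCT116 in both growth forms, and LOVO spheroids stood apart from the other libraries. The fold in LOVO was 6.79 (95% interval 5.93 to 7.80), a log2 change of 2.62 that was larger than that of 99.2% of genes. In HCT116 only 16 and 15 reads lay on the gene, the fold was 1.14 (interval 0.524 to 2.46), and a difference was not detectable at this depth. Of the 1670 exonic bases, 643 are also exon of ARHGEF39 on the opposite strand, and the strand setting of the counting is not stated in the sources used here. ARHGEF39 had 1.61 FPKM in adherent and 2.62 in spheroid LOVO cells, far below CA9 there. In HCT116 it had 2.57 and 0.898 FPKM, above CA9 in both libraries, so the few CA9 reads there are uncertain. The related tumour-associated enzyme CA12 was low in LOVO, at 0.122 and 0.224 FPKM, and had 1.97 and 2.43 FPKM in HCT116.

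VEGFA encodes the growth factor that drives sprouting of blood vessels, and lies on chromosome 6 from 43770184 to 43786487. VEGFA had 8.57 FPKM in adherent and 7.33 in spheroid HCT116 cells, and 24.0 in adherent and 41.8 in spheroid LOVO cells. The lines did not overlap, with both LOVO libraries above both HCT116 libraries. In LOVO spheroids the fold was 1.74 (interval 1.69 to 1.79), a log2 change of 0.77. In HCT116 spheroids it was 0.855 (interval 0.804 to 0.909), a log2 change of -0.20, so VEGFA was lower there than in adherent cells. Among its relatives VEGFC, a lymphatic vessel factor, had 1.06 FPKM in adherent and 7.23 in spheroid LOVO cells, a fold of 6.82 (interval 5.01 to 9.49), and 4 and 2 reads in HCT116. VEGFB kept close to its adherent level in LOVO, with 31.3 and 31.4 FPKM, and PGF had at most 3.14 FPKM in any library.

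ADM encodes adrenomedullin, a secreted peptide that widens vessels and acts on endothelium, and lies on chromosome 11 from 10304680 to 10307397. ADM had 19.9 FPKM in adherent and 11.7 in spheroid HCT116 cells, and 5.48 in adherent and 13.6 in spheroid LOVO cells. Its highest level was in adherent HCT116 cells and its lowest in adherent LOVO cells, and the spheroids of both lines lay between them. The fold was 0.588 (interval 0.530 to 0.653) in HCT116 and 2.48 (interval 2.16 to 2.87) in LOVO, with log2 changes of -0.72 and 1.17. ADM and VEGFA were the only members for which the counting interval lay below 1 in one line and above 1 in the other. The related peptide gene ADM2 fell in LOVO from 14.5 to 2.82 FPKM, a log2 change of -2.02, and changed by -0.24 in HCT116.

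Receptors for these ligands were scarce. FLT1 and KDR, the main signalling receptors for VEGFA, had at most 7 reads in any library and 0 reads in both LOVO libraries. RAMP2 and RAMP3, which turn the receptor CALCRL into adrenomedullin receptors, had at most 5 and 0 reads, and CALCRL reached 0.988 FPKM. The coreceptor NRP1 went from 1.61 to 6.84 FPKM in LOVO, a log2 change of 1.59, and from 0.332 to 0.630 FPKM in HCT116. NRP2, its relative, had folds of 1.86 (interval 1.65 to 2.10) in LOVO and 1.12 in HCT116. RAMP1, which pairs with CALCRL to bind a related peptide, had 7.08 and 7.67 FPKM in HCT116 and 0 and 4 reads in LOVO.

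BNIP3 and BNIP3L encode related outer mitochondrial membrane proteins that recruit the autophagy machinery to mitochondria. BNIP3, on chromosome 10 from 131966455 to 131982013, had 10.4 FPKM in adherent and 10.1 in spheroid HCT116 cells, and 16.5 in adherent and 13.9 in spheroid LOVO cells. It was the 1 member lower in LOVO spheroids, with a fold of 0.840 (interval 0.782 to 0.902). The size of that decrease depended on the scaling: its log2 change in LOVO, -0.24, was -0.05 with TPM and -0.09 with TMM-style scaling. Its fold of 0.977 in HCT116 had an interval of 0.894 to 1.07, and the log2 change there turned from -0.03 to 0.01 when libraries were scaled by TMM. BNIP3L, on chromosome 8 from 26382898 to 26505636, had 17.4 FPKM in adherent and 24.2 in spheroid HCT116 cells, and 14.9 in adherent and 17.5 in spheroid LOVO cells. It was higher in the spheroids of both lines, with folds of 1.39 (interval 1.29 to 1.49) and 1.17 (interval 1.09 to 1.27). BNIP1, which shares their name stem and is not a close relative, had log2 changes of -0.47 in HCT116 and 0.02 in LOVO. Transcripts of other genes share 10.1% of the 50-base stretches of BNIP3, among them the BNIP3P1 pseudogene, which had at most 4 reads in a library. For BNIP3L the share is 7.29%, and 386 of its exonic bases are exon of genes on the opposite strand, mostly of PNMA2. PNMA2 was also higher in spheroids, with 0.633 and 2.80 FPKM in HCT116 and 1.51 and 3.03 FPKM in LOVO, and its part in the BNIP3L values was not tested.

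EGLN3 encodes an oxygen-dependent prolyl hydroxylase that is itself induced by low oxygen and so forms a feedback loop on the alpha subunits. It lies on chromosome 14 from 33924231 to 34462774. EGLN3 had 1.81 FPKM in adherent and 2.47 in spheroid HCT116 cells, and 1.07 in adherent and 9.99 in spheroid LOVO cells. Adherent LOVO cells had the lowest level and LOVO spheroids the highest, 9.35 times as much (interval 7.86 to 11.2), which was the largest fold of any of the 10 genes in either line. Its log2 change was 2.41 in LOVO and 0.31 in HCT116, where the fold was 1.37 (interval 1.16 to 1.62). None of its exonic bases overlap another gene.

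The remaining oxygen-sensing genes did not move as a block. Of the 9 listed, 7 passed the mean of 1 FPKM. Of these 7, 4 were higher in HCT116 spheroids (background 45.8%) and 4 in LOVO spheroids (background 45.5%). The medians of their log2 changes were 0.03 in both lines. EGLN1, the main hydroxylase under normal oxygen, had 8.33 and 8.62 FPKM in HCT116 and 14.8 and 9.26 FPKM in LOVO, a fold of 0.625 in LOVO (interval 0.583 to 0.671). EGLN2 stayed at or below 1.38 FPKM in every library. VHL had 23.2 and 16.8 FPKM in HCT116 and 22.1 and 26.3 FPKM in LOVO. HIF1AN, which hydroxylates an asparagine of the alpha subunits, had 11.4 and 15.2 FPKM in HCT116 and 6.18 and 6.31 FPKM in LOVO.

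The transcription factor subunits differed more. HIF1A had 25.1 FPKM in adherent and 32.2 in spheroid HCT116 cells, and 100 in adherent and 269 in spheroid LOVO cells, with log2 changes of 0.35 and 1.42. ARNT2, a partner of the alpha subunits known from nerve tissue, had 1.72 and 1.48 FPKM in HCT116 but rose from 0.598 to 65.4 FPKM in LOVO, a fold of 109 (interval 88.1 to 137). ARNT, the common partner, had 10.2 and 10.1 FPKM in HCT116 and 11.7 and 10.9 FPKM in LOVO. EPAS1 had 17.0 and 17.3 FPKM in HCT116 and 45.7 and 41.7 FPKM in LOVO, and HIF3A had at most 5 reads in any library. These values are transcript levels, and the alpha subunits are regulated mainly as proteins, which were not measured here.

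**Figure D2:**
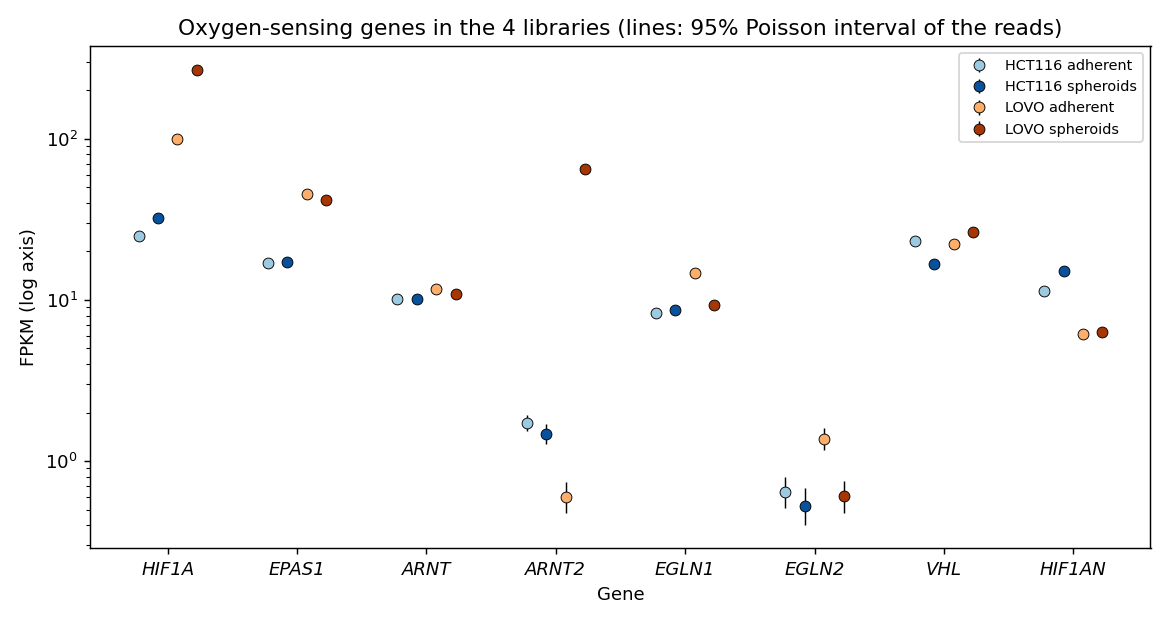
FPKM on a log axis of 8 oxygen-sensing genes in the 4 libraries, with 95% Poisson intervals of the reads; HIF3A, with at most 5 reads, is not drawn. ARNT2 and HIF1A in LOVO spheroids, at 65.4 and 269 FPKM, stand above their levels in the other libraries.

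KDM3A encodes a Jumonji demethylase that removes methyl groups from lysine 9 of histone H3 and needs oxygen to do so. It lies on chromosome 2 from 86440647 to 86492716. KDM3A had 6.02 FPKM in adherent and 7.85 in spheroid HCT116 cells, and 3.18 in adherent and 3.58 in spheroid LOVO cells. Both HCT116 libraries were above both LOVO libraries, and the folds in spheroids were small, at 1.30 (interval 1.22 to 1.40) and 1.13 (interval 1.02 to 1.24). Its relatives KDM3B and JMJD1C were lower in spheroids, with log2 changes of -0.16 and -0.24 in HCT116 and of -0.54 and -0.24 in LOVO.

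P4HA1 encodes the catalytic subunit of collagen prolyl 4-hydroxylase, which lets collagen chains form a stable triple helix. It lies on chromosome 10 from 73007217 to 73096974. P4HA1 had 25.4 FPKM in adherent and 47.5 in spheroid HCT116 cells, and 19.5 in adherent and 38.5 in spheroid LOVO cells. Both spheroid libraries were above both adherent libraries. It was the member with the most alike changes, 1.87-fold (interval 1.76 to 1.99) in HCT116 and 1.97-fold (interval 1.83 to 2.12) in LOVO. Its paralogs moved the same way: P4HA2 had log2 changes of 0.47 in HCT116 and 1.09 in LOVO, and P4HA3 of 0.34 and 1.41.

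NDRG1 encodes a cytoplasmic protein tied to cell differentiation and stress, and is on chromosome 8 from 133237171 to 133302022. NDRG1 had 33.5 FPKM in adherent and 69.9 in spheroid HCT116 cells, and 27.2 in adherent and 31.5 in spheroid LOVO cells. HCT116 spheroids stood apart, and the other libraries were within 27.2 to 33.5 FPKM. The fold was 2.09 (interval 2.03 to 2.15) in HCT116 and 1.16 (interval 1.12 to 1.20) in LOVO, with log2 changes of 1.04 and 0.21. Of its paralogs NDRG2 showed a like pattern, with 2.15 and 5.12 FPKM in HCT116 and 2.27 and 2.29 FPKM in LOVO. NDRG3 was lower in both lines' spheroids, with log2 changes of -0.23 and -0.14, and NDRG4 higher, with 0.34 and 0.39.

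ANKRD37 encodes a small ankyrin repeat protein known chiefly as a hypoxia target. It lies on chromosome 4 from 185396021 to 185400628. ANKRD37 had 1.69 FPKM in adherent and 10.2 in spheroid HCT116 cells, and 0.670 in adherent and 1.04 in spheroid LOVO cells. HCT116 spheroids stood apart from the rest, with 442 reads against 89, 31 and 54. The fold was 6.02 (interval 4.79 to 7.65) in HCT116, a log2 change of 2.06 that was larger than that of 99.8% of genes. In LOVO it was 1.55 with an interval of 0.980 to 2.50, and the log2 change was 0.29. Of its 2580 exonic bases, 909 are exon of UFSP2 on the other strand. UFSP2 went the other way in HCT116, from 9.61 to 6.01 FPKM, and had 2.57 and 1.93 FPKM in LOVO. It was above ANKRD37 in adherent HCT116 cells and in both LOVO libraries, so the ANKRD37 reads there, and the folds built on them, are uncertain.

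**Figure D3:**
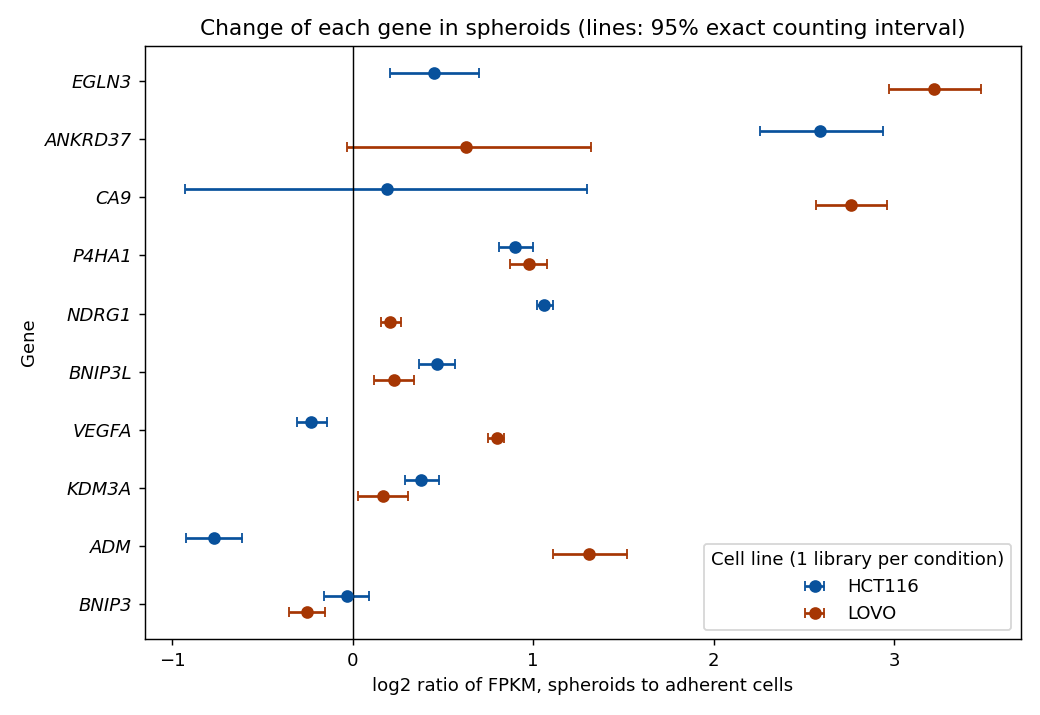
The log2 ratio of FPKM without a pseudocount, spheroids to adherent cells, for each of the 10 genes in HCT116 and LOVO, with exact 95% counting intervals. In HCT116 6 intervals lie above 0 and 2 below, in LOVO 8 above and 1 below, and the matching shares over all genes were not computed. For ADM, ANKRD37, CA9 and EGLN3 the interval in one line lies far from that in the other.

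By counting error alone, the interval of the fold lay above 1 for 6 of the 10 genes in HCT116 and 8 in LOVO. It lay below 1 for VEGFA and ADM in HCT116 and for BNIP3 in LOVO. It included 1 for CA9 and BNIP3 in HCT116 and for ANKRD37 in LOVO. These intervals take the deposited scaling as given. The share of all 14429 genes with such intervals was not computed, so the counts do not set the members apart from other genes. The difference between the log2 changes, LOVO minus HCT116, was 2.56 for CA9, 2.10 for EGLN3, 1.89 for ADM and 0.97 for VEGFA. It was -1.77 for ANKRD37 and -0.83 for NDRG1, and between -0.23 and 0.07 for the other 4 genes. None of these differences has a replicate check. Across the 10 genes the changes in the 2 lines had a Pearson r of -0.28, beside 0.30 across all 14429 genes. Both are descriptions across genes, which are not independent.

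**Figure D4:**
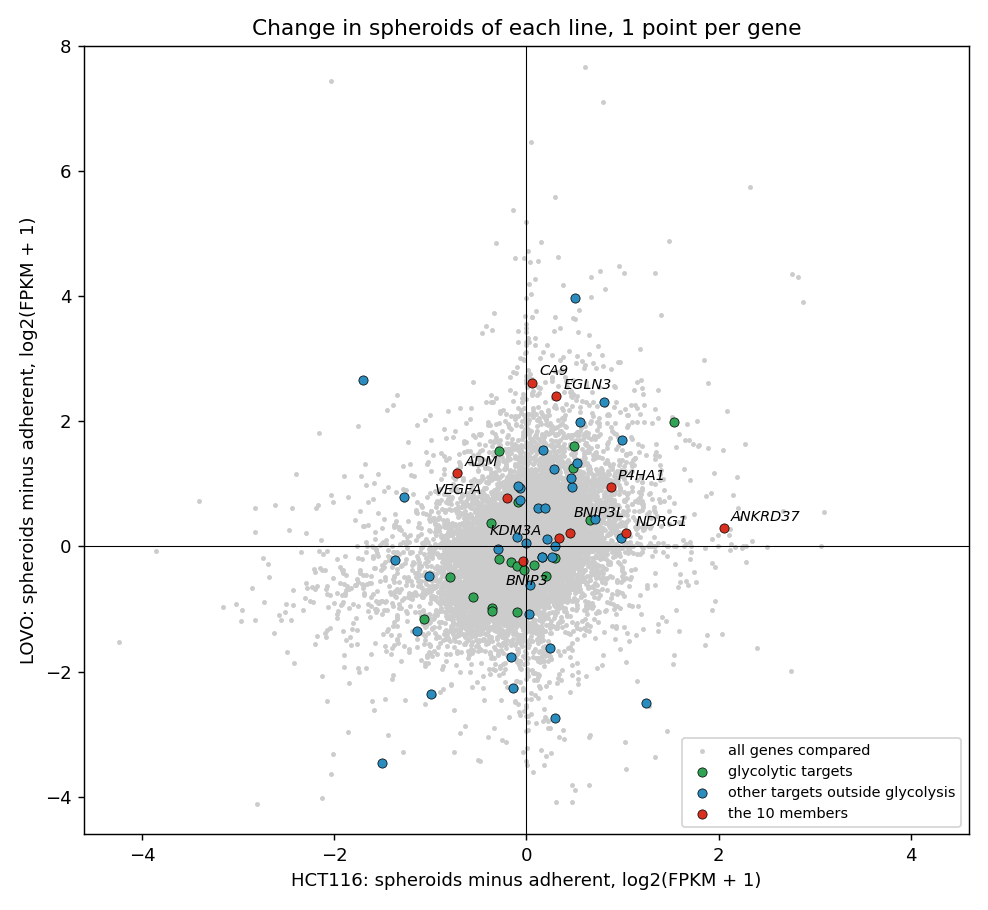
Each point is a gene at its change in HCT116 (horizontal) and LOVO (vertical) spheroids, both on the log2(FPKM + 1) scale; grey points are the 14429 genes compared. CA9 and EGLN3 lie high on the vertical axis near 0 on the horizontal, ANKRD37 and NDRG1 far right near 0 on the vertical, and P4HA1, at 0.88 and 0.94, lies between them.

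The lines also differed before spheroids were formed. In adherent cells 3 of the 10 genes were higher in LOVO than in HCT116 (background 53.0%). Those above a log2 difference of 1 were CA9 and VEGFA (2 of 10, background 17.4%), at 2.61 and 1.39, and ADM was below -1 (1 of 10, background 16.4%), at -1.69. In spheroids 5 of 10 were higher in LOVO (background 51.6%). CA9, VEGFA and EGLN3 were above 1 (3 of 10, background 17.7%), at 5.17, 2.36 and 1.66, and ANKRD37 and NDRG1 below -1 (2 of 10, background 15.0%), at -2.46 and -1.12. The CA9 fold between the lines was 17.0 in adherent cells (interval 10.2 to 30.2) and 101 in spheroids (interval 61.3 to 181). In the order of the 4 libraries, neighbours did not differ beyond counting error for CA9 and BNIP3 (the HCT116 libraries), ANKRD37 (the LOVO libraries) and BNIP3L (LOVO spheroids and adherent HCT116 cells).

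With cell line as a covariate and both lines as the only replicates, limma called 0 of the 14429 genes at an adjusted p under 0.05 (0%), with 1 residual degree of freedom. At an unadjusted p under 0.05 it had 1545 of the 14429 genes and, at a share close to theirs under these settings, 1 of the 10 hypoxia targets. That gene was P4HA1, higher in both lines, with a mean log2 change of 0.91 and a limma p of 0.0144 (adjusted 0.462). Its SE of 0.24 is the moderated error of limma, drawn partly from other genes, and not the spread of its changes between the lines. The adjusted limma p of the 10 genes ran from 0.462 to 0.860, which does not show that they were alike in spheroids and adherent cells.

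Beyond these 10, 44 other hypoxia targets outside glycolysis were listed, of which 37 passed the mean of 1 FPKM. In each line 22 of the 37 were higher in spheroids (background 45.8% in HCT116 and 45.5% in LOVO) and 15 lower. The median log2 change was 0.17 in HCT116 and 0.13 in LOVO. Higher in both lines were 15 of the 37 (40.5%), beside 70.0% of the 10 members and 27.2% of all genes. The spread of the 37 in LOVO was wide, with an SD of 1.60 over genes beside 0.97 for the members and 0.82 for all genes. In LOVO 9 of the 37 rose (background 8.57%) and 9 fell (background 7.85%) past a log2 change of 1. In HCT116 1 rose (background 2.19%) and 6 fell (background 3.33%).

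Those past 1 in LOVO included matrix and secreted factors. ANGPTL4, a secreted inhibitor of lipoprotein lipase, rose from 0.921 to 29.1 FPKM, a log2 change of 3.97, and had 14.4 and 20.8 FPKM in HCT116. LOXL2 and LOX, which crosslink collagen, had log2 changes of 2.30 and 1.54 in LOVO and 0.81 and 0.18 in HCT116. PLOD1, a collagen lysyl hydroxylase, changed by 1.34 in LOVO and 0.53 in HCT116. The transcription repressor BHLHE40 rose from 35.7 to 144 FPKM in LOVO, the chemokine receptor CXCR4 from 14.2 to 48.5 FPKM, and the nuclear envelope gene SPAG4 from 4.06 to 10.9 FPKM. The genes named here were also higher in HCT116 spheroids, by log2 changes of 0.18 to 0.99.

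Listed targets that fell were as many in LOVO. STC2, a secreted glycoprotein, fell in both lines, with log2 changes of -1.50 in HCT116 and -3.47 in LOVO, and so did LONP1, the mitochondrial protease, with -1.14 and -1.35. TFRC, the transferrin receptor, had -0.99 in HCT116 and -2.36 in LOVO. IGFBP3, which binds insulin-like growth factors, was the 1 gene above 1 in HCT116, at 1.24, and had -2.51 in LOVO. The log2 change in LOVO was -2.74 for the vasoconstrictor gene EDN1, -2.27 for PPP1R3C, which steers glycogen synthesis, -1.77 for CITED2, which competes with the alpha subunits for a coactivator, -1.62 for RAB20 and -1.07 for VLDLR. Also below -1 in HCT116 were MAFF at -1.36, the haem oxygenase gene HMOX1 at -1.27 and the growth inhibitor DDIT4 at -1.01.

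The 21 glycolytic targets gave the nearest contrast. Of these, 8 were higher in HCT116 spheroids (background 45.8%) and 7 in LOVO spheroids (background 45.5%), with median log2 changes of -0.09 and -0.25. Only 4 of the 21 (19.0%) were higher in both lines, beside 70.0% of the 10 members and 27.2% of all genes. Of the 21, 10 were lower in both. ALDOC was the 1 gene above 1 in both lines, with 1.53 and 1.99, and GAPDH was below -1 in both, with -1.06 and -1.16. In LOVO PFKFB4, HK1 and ENO2 had 1.60, 1.52 and 1.25, while GPI and PFKL had -1.04 and -1.03. The 14 genes listed as close paralogs that passed the mean, BNIP1 among them, had a median log2 change of -0.09 for HCT116 and 0.02 for LOVO. These lists were described and not tested against one another, and counts by direction take no account of counting error.

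The median profile of the 10 genes over the 4 libraries, on the log2(FPKM + 1) scale and centred on its mean, was -0.16 in adherent and 0.29 in spheroid HCT116 cells, and -0.39 in adherent and 0.26 in spheroid LOVO cells. No member followed it closely, and the mean absolute difference from it ran from 0.158 for BNIP3L and 0.181 for P4HA1 to 2.01 for CA9. Of the other genes compared, the 5 nearest to it were AC004656.1, ANKZF1, PICK1, DHPS and MOB3C, with mean absolute differences of 0.00961 to 0.0332 over the 4 libraries.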

How the data were processed

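Total RNA of 4 cell line libraries was sequenced after a SMARTER mRNA-Seq preparation. The authors deposited a table of FPKM per gene, and the aligner, counter and strand setting are not given in the sources used here. The submitters' processing notes list mouse builds (GRCm38, mm10), whereas all 58735 gene IDs and positions equal the human GENCODE release 29 (GRCh38). The number of columns of per-sample values left unused was 0. Reads were recovered from FPKM, gene length and the step of each library. Genes whose FPKM averaged 1 or more were compared on the log2(FPKM + 1) scale, with thresholds of 1 and 2 on that log2 scale (the higher after the study's methods), exact Clopper-Pearson intervals of the read ratio, and limma 3.58.1 across both lines with Benjamini-Hochberg adjustment (R 4.3.3; Python 3.11.15). The scripts were tested on simulated data. Alternatives were pseudocounts of 0.1 and 0.01, TPM, TMM-style scaling, median centring, other filters, and limma without the cell line.

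The members and gene lists were chosen with earlier results of these data known. The text names all members, their paralogs, receptors and oxygen-sensing genes, any other listed gene past a log2 change of 1 (except 1 that is not reported here), and the 5 genes nearest to the median profile. That profile was centred again on its mean after genes were found to tie at 1 distance. Overlapping genes and the list of collagen-modifying enzymes and related genes were added after values were seen. The libraries have no replicates.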

Additional observations from a re-analysis of the deposited data

Results flagged for a closer look

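VEGFA and ADM moved in opposite directions in the lines. On the log2(FPKM + 1) scale VEGFA changed by -0.20 in HCT116 spheroids and by 0.77 in LOVO spheroids, and ADM by -0.72 and 1.17. Each direction rests on 1 library per condition, and the difference between the lines was not tested.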

How the results depend on the processing

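Under the 3 scalings and 2 pseudocounts, 99 of the 100 recomputed log2 changes of the 10 genes kept their direction. The exception was BNIP3 in HCT116, 0.01 with TMM-style scaling. In LOVO BNIP3 kept its direction but moved from -0.24 to -0.05 with TPM and to -0.09 with TMM-style scaling. The members' median in LOVO moved from 0.53 to 0.68 and 0.71 with pseudocounts of 0.1 and 0.01 and to 0.81 with TPM. TPM shifted the median of all genes in LOVO from -0.06 to 0.10, and a mean FPKM of at least 5 moved it to -0.21. With TPM and with TMM-style scaling 4 of the 10 genes, not 3, were above a log2 change of 1 in LOVO. The background count above 1 depended more on the settings. In HCT116 it was 316, and 764 and 937 with the pseudocounts of 0.1 and 0.01, 613 with TPM, 520 with no filter, 135 with a mean FPKM of at least 5 and 164 for protein-coding genes only. In LOVO it was 1236, and 2074 and 2266 with those pseudocounts, 2267 with TPM and 627 with a mean FPKM of at least 5. limma called 0 genes at an adjusted p under 0.05 under each alternative, with 163 to 2431 genes at an unadjusted p under 0.05. Members at that unadjusted p were 3 of 10 with TPM (1509 of 14429 genes) and 3 of 10 with no filter (2431 of 35734 genes). Without the cell line they were 0, and under each other alternative 1. No paired analysis was possible because the labels carry no replicate numbers, other than by limma with a term for the cell line, which pairs the growth forms of a line, and with 1 library per condition none could be left out. Depth limits CA9 in HCT116 and ANKRD37 in LOVO.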

Other observations

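P4HA1 and its listed relatives led to a wider look at collagen-modifying enzymes and related genes. This list of 19 genes was drawn up after these values were seen and is given as a description. Of the 18 with a mean FPKM of at least 1, 12 were higher in HCT116 spheroids, 16 in LOVO spheroids and 11 in both. The matching shares of all genes were 45.8%, 45.5% and 27.2%. The median log2 change of the 18 was 0.24 in HCT116 and 1.02 in LOVO. Above 1 were 9 of the 18 in LOVO (background 8.57%) and 0 in HCT116 (background 2.19%). The prolyl 3-hydroxylase family genes P3H1, P3H3 and P3H4 had log2 changes of 1.49, 1.75 and 1.13 in LOVO, and P3H2 had -1.87. LOXL4, a collagen crosslinker, went from 0.321 to 4.41 FPKM in LOVO and from 1.91 to 2.82 FPKM in HCT116. P4HB, the partner of P4HA1 in the hydroxylase, had log2 changes of -0.47 in HCT116 and 0.56 in LOVO. COL3A1, a fibroblast marker, moved alongside, from 0.811 to 5.13 FPKM in LOVO, while COL1A1 went from 9.89 to 6.10 FPKM there and from 5.51 to 15.5 FPKM in HCT116. The part of marker sources in these values was not tested.

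HIF1A-AS1 and HIF1A-AS2, antisense RNAs at the HIF1A locus, had 35 and 28 reads in LOVO spheroids and at most 10 in the other libraries. HIF1A-AS1 shares 117 exonic bases with HIF1A, and reads on those bases cannot be told apart from HIF1A reads without the strand.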
